A study of Homo sapiens with 36 samples.

Results

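DPP8 and DPP9 are intracellular proteases, and NLRP1 and CARD8 are the inflammasome sensors that they hold in check. The rows of these 4 genes were taken, by symbol and Ensembl gene ID, out of 57500 gene rows counted in THP-1 cells, a human monocytic leukaemia line. DPP8 was included because its counts were lower at 10% CO2, so its values between the CO2 levels are given as a description without a test. DPP9, NLRP1 and CARD8 were included for their known link to DPP8. Differences with LPS or between the cell lines were not part of the rule. The study had, however, listed DPP8 as CO2-responsive in each cell line, with and without LPS, and earlier results of these data were known.

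The study asked how buffered hypercapnia, a raised CO2 level with the pH held, changed gene expression in monocytes depleted of the nuclear receptors NR4A2 or NR4A3. The cells carried a lentiviral non-target short hairpin RNA (shNT), 1 against NR4A2 (shNR4A2) or 1 against NR4A3 (shNR4A3), so the control line was itself transduced. Cells of each line were kept for 4 h in buffered medium at 5% CO2, the usual culture level, or at 10% CO2. LPS, a bacterial cell wall lipid that activates monocytes, was added at 2.5 µg/mL for the last 2 h or left out. This gave 12 conditions of 3 replicates and 36 libraries. The study's figure legends call its 3 replicates individual experiments, and whether a line came from 1 clone is not given in the sources used here.

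NLRP1 and CARD8 share an unusual ending, a FIIND domain that cuts itself into an N-terminal and a C-terminal piece that stay bound, with a caspase recruitment domain (CARD) at the end of the C-terminal piece. When the N-terminal piece is degraded by the proteasome, the freed C-terminal piece can assemble an inflammasome and activate caspase-1, which cleaves gasdermin D and kills the cell by pyroptosis. DPP8 and DPP9 cleave a dipeptide after proline from the start of peptides, and they also bind the FIIND domain and hold the freed C-terminal piece inactive. Inhibitors of DPP8 and DPP9 are known to trigger pyroptosis in monocytes, THP-1 cells included, through CARD8. These are background facts on proteins, and the data are on RNA only.

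The starts of DPP8, DPP9 and CARD8 are shown because the study followed ETS-1, a transcription factor of the ETS family, as a candidate regulator of its CO2-sensitive genes. The windows are from RefSeq on GRCh38.p14, all on the minus strand, and hold 90 bases before and 30 bases from the first listed start of each gene. They lie at chr15:65517660-65517779 for DPP8, chr19:4723813-4723932 for DPP9 and chr19:48255917-48256036 for CARD8. Capitals mark the letters CCGGAAGT, an ETS-type sequence, which in DPP9 are read on the other strand as ACTTCCGG.
DPP8: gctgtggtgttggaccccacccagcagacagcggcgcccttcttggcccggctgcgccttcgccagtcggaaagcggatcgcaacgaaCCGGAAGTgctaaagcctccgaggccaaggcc
DPP9: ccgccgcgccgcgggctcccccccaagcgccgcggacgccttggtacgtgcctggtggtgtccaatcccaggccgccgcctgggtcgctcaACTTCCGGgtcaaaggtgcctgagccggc
CARD8: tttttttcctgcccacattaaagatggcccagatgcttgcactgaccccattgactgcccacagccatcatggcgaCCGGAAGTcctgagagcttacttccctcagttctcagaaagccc

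The 8 letters CCGGAAGT were found, on either strand, in the first listed 300-base window of all 3 of these genes. In all, 2 windows were listed for DPP8, 5 for DPP9 and 5 for CARD8. Of the windows after the first, only window 3 of CARD8 held the 8 letters. No window was listed for NLRP1, which was therefore not searched. The 8 letters were also present in 4.435% of the 27305 first listed windows and in 4.14% of all 35116 windows. The shorter CCGGAA, which they contain, was in 17.25% of all windows. Of the other letters searched on both strands, AAGGTCA, a site that NR4A receptors bind, was held by 1 further DPP9 window and by 3.92% of all windows. TGACGTCA, the cAMP response element, was in no window of DPP8, DPP9 or CARD8 and in 1.85% of all windows, and the NF-kB motif, as 1 fixed spelling, was in none of theirs and in 0.191% of all. A match of letters is a description of the sequence and not evidence of binding.

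Library totals ran from 16171161 to 23929138 counts, and a gene is called here when its adjusted p from edgeR's quasi-likelihood test was under 0.05 over the 17720 genes tested. NR4A2 was lower in shNR4A2 than in shNT cells in all 4 states without overlap (mean log2 difference -1.28, SE 0.10, adjusted p = 6.60e-12). NR4A3 was lower in shNR4A3 cells (mean log2 difference -1.20, SE 0.18, adjusted p = 2.38e-06), but at 10% CO2 without LPS the libraries overlapped, at 0.185 to 0.232 TPM against 0.176 to 0.374 TPM in shNT cells. All 8 monocyte markers were detected, with a summed level of 870 to 2290 TPM that differed between the lines (given with the line results). Of these markers 1 was called higher and 1 lower at 10% CO2, where 17.0% and 19.4% of all genes were. With LPS 2 were called higher and 2 lower, where 30.5% and 34.1% of all genes were. T cell markers summed to at most 1.57 TPM and epithelial, fibroblast, erythroid and platelet markers each to at most 0.990 TPM. The NK cell marker sum was 1.21 to 15.6 TPM, from NCAM1, with KLRD1 at 0 counts in 24 of 36, and NCAM1 too differed between the lines. In bulk RNA, fewer expressing cells and less RNA per cell cannot be told apart.

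Levels per length are given as TMM-scaled RPKM, read counts divided by exon length and by the TMM-scaled library size, so that genes can be set beside each other. DPP9 was the highest of the 4 genes, at 10.4 to 14.98 RPKM over the 36 libraries (median 13.0). DPP8 ranged from 3.75 to 9.22 RPKM (median 5.71) and CARD8 from 3.97 to 7.26 RPKM (median 5.13). NLRP1 was the lowest of the 4, at 0.227 to 0.630 RPKM (median 0.396), from 49 to 176 counts per library. DPP8, DPP9 and CARD8 rested on 704 to 2803 counts per library. All 4 genes passed the low-count filter and no library had 0 counts for any of them. In every library DPP9 stood above DPP8 and CARD8 above NLRP1.

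**Figure D1:**
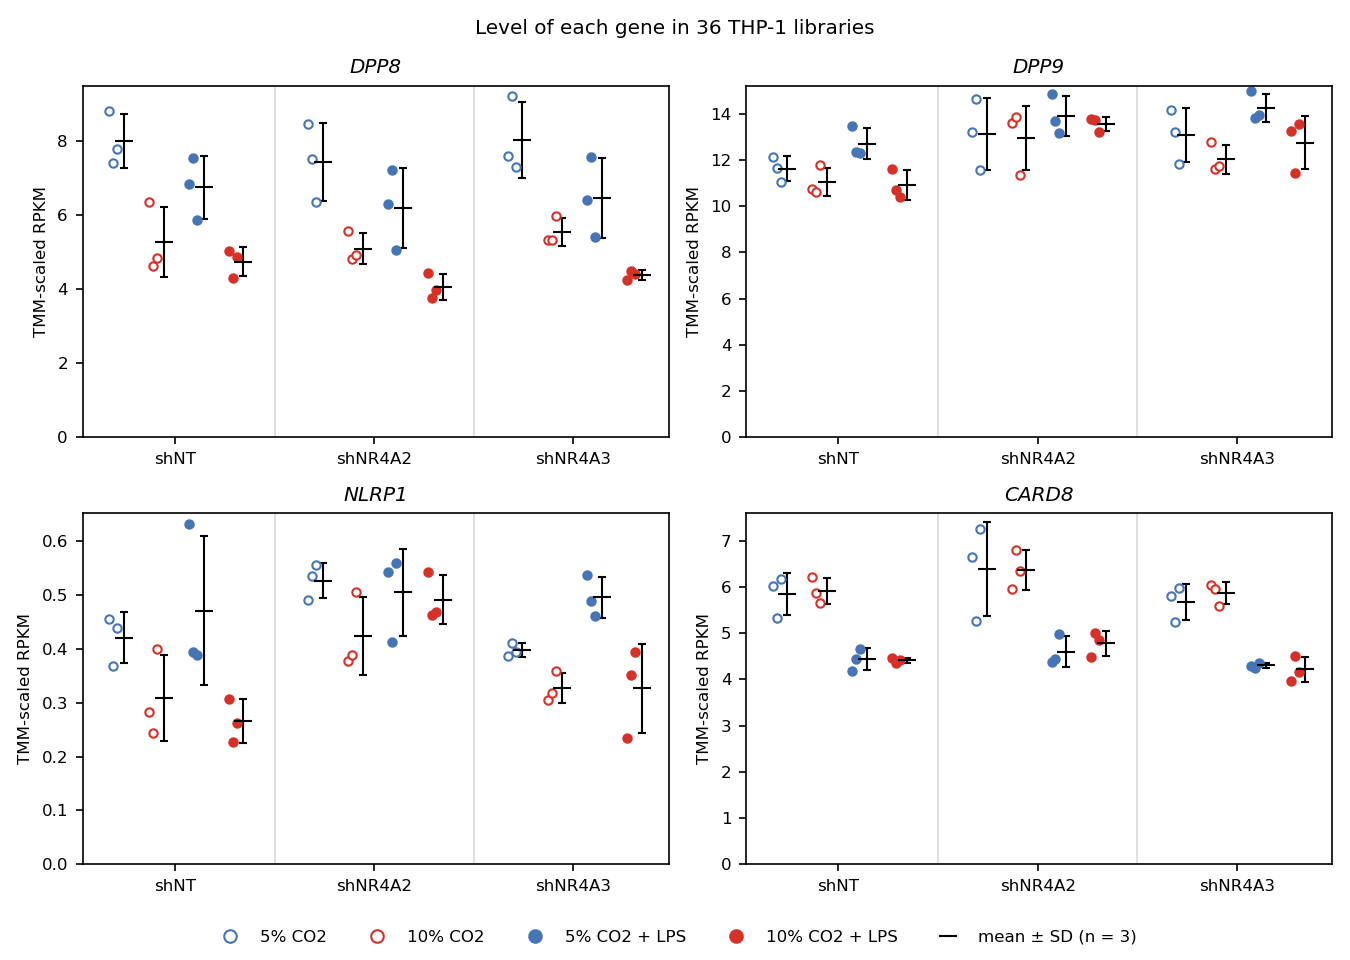
TMM-scaled RPKM of DPP8, DPP9, NLRP1 and CARD8 (y axes, each from 0) in shNT, shNR4A2 and shNR4A3 cells, with 1 point per library, blue for 5% and red for 10% CO2, open without LPS and filled with LPS, and bars for the mean ± SD of 3 libraries. DPP8 is lower in the red than in the blue points of the same line and LPS state, CARD8 is lower in the filled points, at 3.97 to 5.01 against 5.24 to 7.26 RPKM, and DPP9 spans the narrowest relative range.

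DPP8 removes dipeptides from proline-containing peptides in the cytosol. In shNT cells without LPS, the 3 libraries were at 8.83, 7.42 and 7.78 RPKM at 5% CO2 and at 6.36, 4.63 and 4.85 RPKM at 10% CO2. With LPS they were at 6.85, 7.54 and 5.86 RPKM and at 5.04, 4.31 and 4.88 RPKM. The 10% CO2 libraries lay below the 5% CO2 libraries in both states, and the log2 differences were -0.59 (SE 0.12) and -0.50 (SE 0.10).

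In shNR4A2 cells DPP8 was at 8.46, 7.51 and 6.36 RPKM at 5% CO2 and at 5.57, 4.80 and 4.91 RPKM at 10% CO2 without LPS. With LPS the values were 6.31, 7.22 and 5.05 RPKM at 5% and 4.44, 3.75 and 3.98 RPKM at 10% CO2. Again no library overlapped, with log2 differences of -0.55 (SE 0.13) and -0.61 (SE 0.13). In shNR4A3 cells the levels were 7.60, 9.22 and 7.31 RPKM at 5% CO2 and 5.32, 5.33 and 5.97 RPKM at 10% CO2 without LPS. With LPS they were 6.42, 7.58 and 5.41 RPKM at 5% CO2 and 4.24, 4.49 and 4.42 RPKM at 10% CO2. The differences were -0.53 (SE 0.10) and -0.56 (SE 0.11) on the log2 scale.

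DPP8 was thus lower at 10% CO2 without overlap in 6 of 6 comparisons, the contrast by which it had been chosen. It passed the threshold of a call in 4 of 6, the exceptions being both comparisons in shNR4A2 cells. With the replicate number as a block, or with DESeq2, it did so in 6 of 6, and with library size only in 3 of 6. As DPP8 was chosen on this contrast, these counts are a description and not a test of it. Without LPS 0.615% of all genes were called in shNT, 0.0113% in shNR4A2 and 1.13% in shNR4A3 cells, and with LPS 8.19%, 0.198% and 2.13%. Libraries lower at 10% CO2 without overlap were more common, in 9.67%, 7.35% and 11.1% of all genes without LPS and 14.5%, 10.6% and 13.1% with LPS. Its mean over the 6 was -0.56 (SE 0.05). The differences of this response between shNR4A2 or shNR4A3 and shNT cells ranged from -0.09 to 0.06, and those between cells with and without LPS from -0.07 to 0.09, each with an SE of 0.16 to 0.19. The 6 values lay closer together than the SE of any of these differences, whose 95% intervals reached from -0.44 to 0.43. The study had listed DPP8 as CO2-responsive in every line and LPS state, so this closeness is partly built into the choice.

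LPS also lowered DPP8. Over the 3 lines and both CO2 levels it was at 4.63 to 9.22 RPKM without LPS (median 6.36) and at 3.75 to 7.58 RPKM with LPS (median 5.04), and the pooled ranges overlapped. The mean log2 difference was -0.27 (SE 0.05, edgeR adjusted p = 3.98e-05). In that contrast 64.6% of all genes were called and 26.7% of genes had a lower value. All 6 separate comparisons were negative, from -0.32 to -0.15, and 2 of 6 were called. At 5% CO2 22.9% of all genes were called in shNT, 18.2% in shNR4A2 and 25.3% in shNR4A3 cells, and at 10% CO2 31.2%, 35.0% and 42.1%. The 2 calls were shNR4A2 cells at 10% CO2 (-0.32, SE 0.10, adjusted p = 0.0273) and shNR4A3 cells at 10% CO2 (-0.32, SE 0.08, adjusted p = 0.00392), and in both the 3 LPS libraries lay below the 3 without LPS, as they did in 25.1% and 27.5% of all genes. The call in shNR4A2 cells was lost when shNR4A2 10% CO2 replicate 1 (adjusted p = 0.0986), or 10% CO2 + LPS replicate 2 (0.139) or 3 (0.0824), was left out. The comparison in shNR4A3 cells at 5% CO2 was also called without its 5% CO2 + LPS replicate 2 (-0.43, adjusted p = 0.0142). With the replicate number as a block 4 of 6 were called, those of shNT and shNR4A3 cells at 5% CO2 being added (adjusted p = 0.0342 and 0.00399).

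The lowest mean level of DPP8 was in the condition that combined both, shNR4A2 cells at 10% CO2 with LPS (4.06 ± 0.36 RPKM, SD, n = 3), and the highest in shNR4A3 cells at 5% CO2 without LPS (8.04 ± 1.03 RPKM, SD, n = 3), 1.98-fold apart. Across the 12 conditions in order of DPP8 level, the 6 at 5% CO2 came first and the 6 at 10% CO2 last, and all 11 neighbouring means were closer than the larger of their SDs. Between lines DPP8 differed less. It was called in 0 of 8 line comparisons (1 of 8 at an unadjusted p under 0.05, and 0 of 8 with DESeq2). Between shNR4A2 and shNT cells 5.69% of all genes were called at 5% CO2, 6.21% at 5% CO2 with LPS, 7.95% at 10% CO2 and 18.9% at 10% CO2 with LPS, and between shNR4A3 and shNT cells 6.19%, 5.41%, 6.85% and 14.5%. The means were -0.13 for shNR4A2 minus shNT (SE 0.07, adjusted p = 0.126) and -0.03 for shNR4A3 minus shNT (SE 0.07, adjusted p = 0.809). With the replicate block, shNR4A2 cells at 10% CO2 with LPS were called lower (-0.23, adjusted p = 0.00777), as they were without their replicate 1 (-0.30, adjusted p = 0.0371).

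DPP9 is the closest relative of DPP8, with a like cleavage preference, and forms the complex with NLRP1 and CARD8 that has been studied most. Between the CO2 levels it moved little. It was at 11.1 to 14.98 RPKM at 5% CO2 (median 13.2) and at 10.4 to 13.9 RPKM at 10% CO2 (median 11.8) in 18 libraries each, and these ranges overlapped. All 6 log2 differences were below 0, from -0.21 to -0.02, and 0 of 6 were called (1 of 6 at an unadjusted p under 0.05, and 0 of 6 with DESeq2). The mean was -0.10 (SE 0.04, adjusted p = 0.0223), where 36.4% of genes were called. It was no longer called when all genes with a count were tested (adjusted p = 0.129).

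With LPS DPP9 was at 10.4 to 14.98 RPKM (median 13.4), against 10.6 to 14.7 RPKM without LPS (median 11.8). The mean log2 difference was 0.08 (SE 0.04, adjusted p = 0.0566), and 0 of 6 comparisons were called (0 of 6 at an unadjusted p under 0.05 and with DESeq2). The direction rested on the scaling. TMM factors were 0.881 to 0.967 in LPS libraries and 1.05 to 1.13 in the others, and with library size alone the mean became -0.13 (adjusted p = 0.000564) while the median of all genes moved to -0.22. With the replicate block the mean was 0.08 with an adjusted p of 0.0176.

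DPP9 was higher in both knockdown lines. It was at 10.4 to 13.5 RPKM in the 12 shNT libraries (median 11.7), at 11.4 to 14.9 RPKM in shNR4A2 cells (median 13.7) and at 11.4 to 14.98 RPKM in shNR4A3 cells (median 13.2). The mean log2 difference was 0.21 for shNR4A2 minus shNT (SE 0.04, adjusted p = 0.000204), where 40.9% of genes were called, and 0.17 for shNR4A3 minus shNT (SE 0.04, adjusted p = 0.00294), where 32.9% were called. Both contrasts used the same 12 shNT libraries. All 8 separate differences were above 0, from 0.12 to 0.31, and 1 of 8 was called, in a comparison with 18.9% of all genes called. That was at 10% CO2 with LPS, where shNR4A2 cells had 13.8, 13.7 and 13.2 RPKM and shNT cells 11.6, 10.7 and 10.4 RPKM. The 2 groups did not overlap, as in 17.7% of all genes in this direction (log2 difference 0.31, SE 0.07, adjusted p = 0.0100), and the call was lost without shNT 10% CO2 + LPS replicate 3 (adjusted p = 0.0621). With the replicate block the shNR4A3 comparison in the same state was called too (0.23, adjusted p = 0.0164), and also without shNR4A3 10% CO2 + LPS replicate 2 (0.30, adjusted p = 0.0310). NCAM1 was higher in the same lines, at 8.04 to 15.6 TPM in shNR4A2 and 5.98 to 12.3 TPM in shNR4A3 against 1.19 to 1.79 TPM in shNT cells, while the other NK cell marker KLRD1 reached at most 0.0416 TPM in any library. Of the 8 monocyte markers 5 were called higher and 0 lower in shNR4A2 cells, where 20.2% and 20.7% of all genes were. In shNR4A3 cells 6 of these markers were called higher and 1 lower, where 16.0% and 16.9% of all genes were. Their summed level was 1529 to 1903 TPM in shNR4A2 and 1656 to 2290 TPM in shNR4A3 against 870 to 1271 TPM in shNT cells, without overlap. LYZ, which encodes lysozyme, had mean log2 differences of 1.70 (SE 0.08) and 2.21 (SE 0.09), CSF1R, the receptor for macrophage colony-stimulating factor, 0.91 (SE 0.09) and 1.14 (SE 0.09), and CD14, a co-receptor for LPS, 1.19 (SE 0.21) and 0.79 (SE 0.21), all called in edgeR. FCGR1A was the marker called lower in shNR4A3 cells (-0.14, SE 0.04, edgeR adjusted p = 0.00611). It was not called in shNR4A2 cells (0.07, SE 0.04). CD33 was called in neither line, at 0.07 (SE 0.04) in shNR4A2 and -0.07 (SE 0.04) in shNR4A3 cells. The part of the monocyte markers, and that of NCAM1, in the differences between lines given here for the 4 genes, their ratios and the list around them was not tested.

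NLRP1 is a sensor of viral proteases and of stalled ribosomes, best known in skin and airway epithelium, and was the lowest of the 4 genes here. It was lower at 10% CO2, at 0.227 to 0.543 RPKM (median 0.355) in 18 libraries against 0.368 to 0.630 RPKM (median 0.458) at 5% CO2. The mean log2 difference was -0.41 (SE 0.08, adjusted p = 9.45e-05) in a contrast where 36.4% of genes were called, and 6.13% of the genes tested had a lower value in this contrast. All 6 differences were below 0, from -0.82 to -0.04, and the libraries did not overlap in 3 of 6. Over the 6 comparisons 7.35% to 14.5% of all genes lay lower without overlap. Called was 1 of 6, in shNT cells with LPS, in a comparison with 8.19% of all genes called. There the 3 libraries were at 0.630, 0.393 and 0.388 RPKM at 5% and at 0.307, 0.227 and 0.262 RPKM at 10% CO2 (-0.82, SE 0.22, adjusted p = 0.0380). Replicate 1 at 5% CO2 stood above the rest, and without it the value was -0.56 (adjusted p = 0.156). The call was also lost without 5% CO2 + LPS replicate 2 (0.0559) or 10% CO2 + LPS replicate 2 (0.147) or 3 (0.109), whereas the mean over the 6 comparisons kept an adjusted p of 2.27e-05 to 0.000246 when any 1 library was left out.

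In shNR4A2 cells with LPS, NLRP1 was at 0.543, 0.412 and 0.560 RPKM at 5% and at 0.543, 0.462 and 0.468 RPKM at 10% CO2, which overlapped (-0.04, SE 0.18). This response differed from that of shNT cells by 0.79 (SE 0.29), with an unadjusted p of 0.0150 and an adjusted p of 1.00 over all genes, so the difference was not called. LPS did not move NLRP1 to a call, with a mean of 0.07 (SE 0.08, adjusted p = 0.479) and 0 of 6 comparisons called (0 of 6 at an unadjusted p under 0.05 and with DESeq2). The sign of that mean turned to -0.15 (adjusted p = 0.102) with library size alone.

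NLRP1 was higher in shNR4A2 than in shNT cells, with a mean log2 difference of 0.44 (SE 0.10, adjusted p = 0.000353). The 12 shNR4A2 libraries were at 0.377 to 0.560 RPKM (median 0.498) and the 12 shNT libraries at 0.227 to 0.630 RPKM (median 0.378). At 10% CO2 with LPS the shNR4A2 libraries lay above all 3 shNT libraries named above, as in 17.7% of all genes (0.88, SE 0.17, adjusted p = 0.00374). This was the 1 of 8 line comparisons that was called, with 18.9% of all genes called in it. That comparison shares its shNT libraries at 10% CO2 with the called CO2 comparison of shNT cells. In shNR4A3 cells NLRP1 was at 0.235 to 0.536 RPKM (median 0.390), with a mean difference of 0.09 from shNT cells (SE 0.10, adjusted p = 0.509).

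CARD8 is the sensor of the pair that is active in blood cells, where it detects the HIV protease. It was lower with LPS in every line at both CO2 levels. In shNT cells at 5% CO2 the libraries were at 6.02, 5.32 and 6.17 RPKM without and at 4.19, 4.45 and 4.66 RPKM with LPS. At 10% CO2 they were at 6.20, 5.88 and 5.64 RPKM and at 4.46, 4.35 and 4.43 RPKM. The LPS libraries lay below the others in both, by -0.39 (SE 0.09, adjusted p = 0.00538) and -0.41 (SE 0.09, adjusted p = 0.00277) on the log2 scale.

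In shNR4A2 cells CARD8 was at 6.66, 5.27 and 7.26 RPKM without and 4.37, 4.44 and 4.99 RPKM with LPS at 5% CO2. At 10% CO2 it was at 5.95, 6.80 and 6.35 RPKM and at 4.49, 5.01 and 4.85 RPKM. The log2 differences were -0.48 (SE 0.14, adjusted p = 0.0254) and -0.40 (SE 0.09, adjusted p = 0.00366). In shNR4A3 cells the levels were 5.81, 5.24 and 5.97 RPKM without and 4.29, 4.26 and 4.36 RPKM with LPS at 5% CO2. At 10% CO2 they were 6.04, 5.96 and 5.59 RPKM and 3.97, 4.51 and 4.16 RPKM. Here the differences were -0.40 (SE 0.09, adjusted p = 0.00599) and -0.46 (SE 0.07, adjusted p = 0.000205).

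All 6 comparisons were called, with 18.2% to 42.1% of all genes called in them, and none overlapped. The LPS libraries lay lower without overlap in 19.4%, 17.8% and 21.3% of all genes in shNT, shNR4A2 and shNR4A3 cells at 5% CO2 and in 23.2%, 25.1% and 27.5% at 10% CO2. The highest of the 18 LPS libraries (5.01 RPKM) stayed below the lowest of the 18 without LPS (5.24 RPKM), whichever line or CO2 level they came from, which held for 3.54% of all genes. The mean was -0.43 (SE 0.04, adjusted p = 1.62e-12) in a contrast with 64.6% of genes called, and 17.8% of genes had a lower value in it. The LPS response of CARD8 differed between lines and CO2 levels by -0.08 to 0.06, with 95% intervals that reached from -0.40 to 0.38. The call in shNR4A2 cells at 5% CO2, where the spread was widest, was lost without 5% CO2 replicate 1 (adjusted p = 0.0735) or 3 (0.133), or 5% CO2 + LPS replicate 1 (0.107) or 2 (0.0654).

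No CO2 response of CARD8 was detectable in these libraries. It was at 4.19 to 7.26 RPKM at 5% CO2 (median 5.11) and 3.97 to 6.80 RPKM at 10% CO2 (median 5.30). The mean difference was 0.01 (SE 0.04, adjusted p = 0.823), with a 95% interval of -0.06 to 0.08. Of the 6 comparisons, 0 were called (0 of 6 at an unadjusted p under 0.05 and with DESeq2), and 3 were above and 3 below 0. Between lines the means were 0.10 for shNR4A2 (SE 0.04, adjusted p = 0.0654, or 0.13 and 0.00732 without shNR4A2 5% CO2 replicate 2) and -0.04 for shNR4A3 (SE 0.04, adjusted p = 0.534), and 0 of 8 comparisons were called (0 of 8 at an unadjusted p under 0.05 and with DESeq2).

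**Figure D2:**
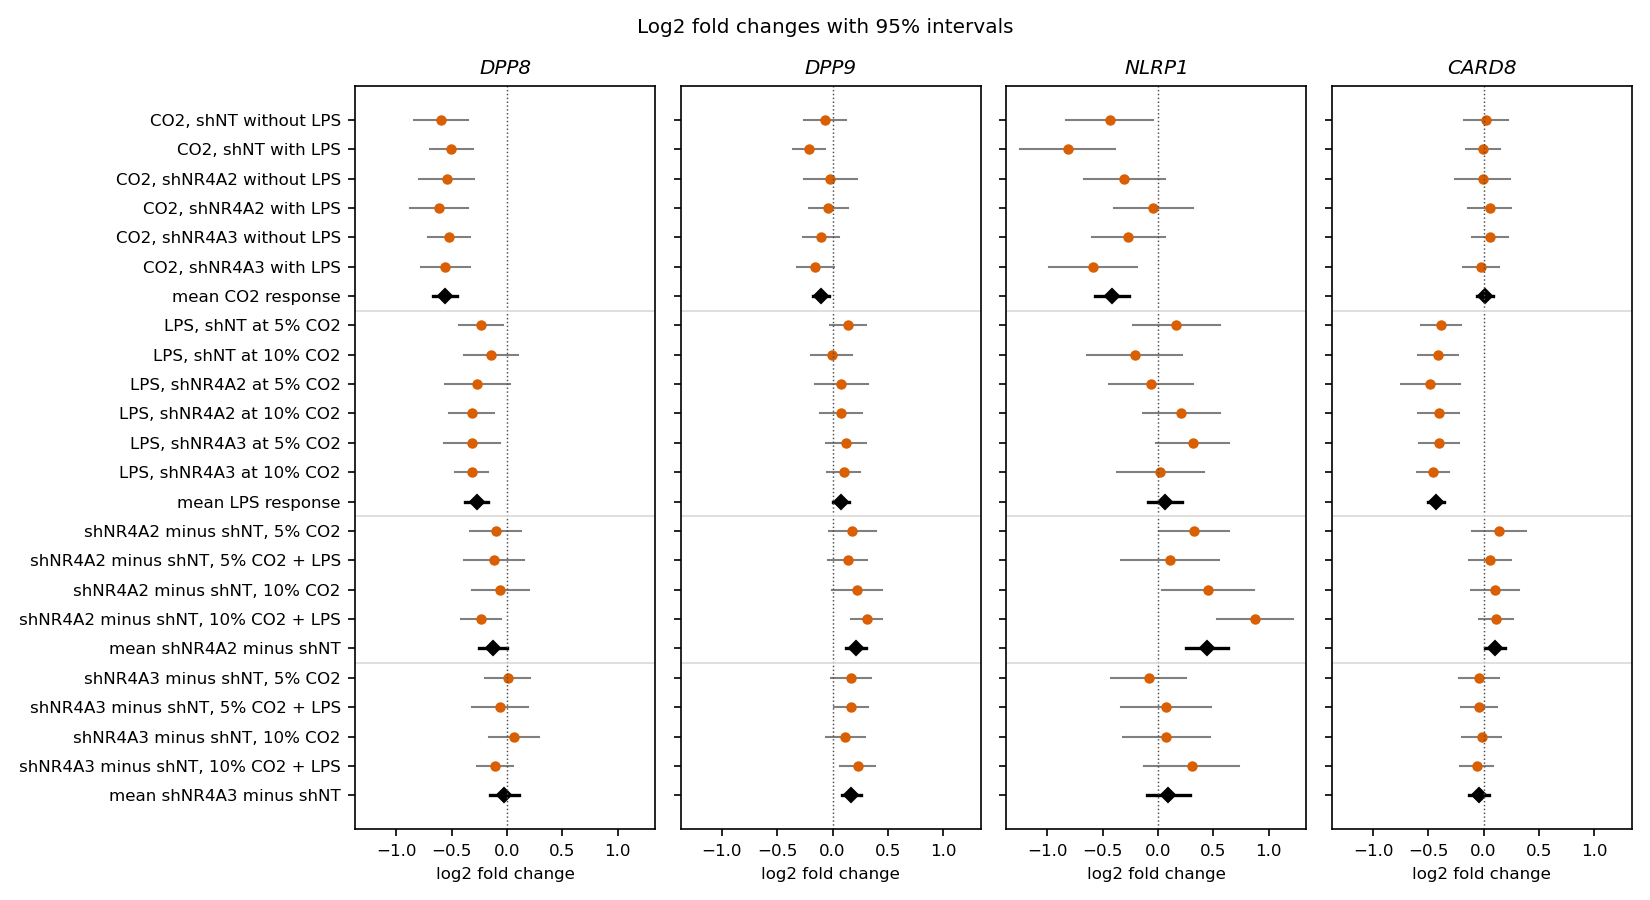
Log2 fold changes (x axes) of DPP8, DPP9, NLRP1 and CARD8 in the 6 CO2 comparisons (10% minus 5%), the 6 LPS comparisons (LPS minus none) and the 8 line comparisons, as orange points with 95% intervals, and the mean of each kind as black diamonds. DPP8 sits at -0.61 to -0.50 in the CO2 rows while CARD8 lies at -0.02 to 0.06 there, and CARD8 sits at -0.48 to -0.39 in the LPS rows; NLRP1 has the widest intervals.

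In order of level over the 12 conditions, DPP9 was highest in shNR4A3 cells at 5% CO2 with LPS and lowest in shNT cells at 10% CO2 with LPS, 1.31-fold apart, and all 11 neighbours lay within the larger of their SDs. NLRP1 was highest in shNR4A2 cells at 5% CO2 without LPS and lowest in shNT cells at 10% CO2 with LPS, 1.98-fold apart, with 10 of 11 neighbours within their SDs. CARD8 was highest in shNR4A2 cells at 5% CO2 without LPS and lowest in shNR4A3 cells at 10% CO2 with LPS, 1.52-fold apart, with 8 of 11 within their SDs.

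No difference between responses was called. In 11 tests of a difference between responses, DPP9, NLRP1 and CARD8 were called in 0 (at an unadjusted p under 0.05 only the 1 for NLRP1 given above, and 0 with DESeq2). In these tests 0.00% of all genes were called except in 3, with 0.0226%, 0.0451% and 0.198%. The mean difference of the CO2 response between cells with and without LPS was -0.07 (SE 0.07) for DPP9, -0.14 (SE 0.16) for NLRP1 and -0.01 (SE 0.07) for CARD8, with adjusted p from 0.765 to 0.976, in a contrast with 1.99% of genes called. For the LPS response of DPP8 the lines differed from shNT cells by -0.18 to -0.02 (SE 0.15 to 0.19, adjusted p from 0.824 to 1.00).

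Within a library the ratio of 2 genes does not depend on scaling. The ratio of DPP8 to DPP9, both per length, ran from 0.273 to 0.728 (median 0.447). With LPS it was 0.782 times as high (exact permutation test within line and CO2 level, two-sided, p = 5e-06, 2.5e-05 adjusted over 10 tests), in 6 of 6 pairs of conditions. It was also lower in shNR4A2 cells (0.791-fold, exact permutation test, adjusted p = 0.00075) and in shNR4A3 cells (0.875-fold, exact permutation test, adjusted p = 0.0247), each in 4 of 4 states. Without shNT 10% CO2 replicate 1 the latter had an unadjusted p of 0.0522 in the exact permutation test. At 10% CO2 the ratio was 0.731 times that at 5%, given without a test because DPP8 was chosen on it. The lowest mean ratio was that of shNR4A2 cells at 10% CO2 with LPS, at 0.322, 0.273 and 0.301, and the highest that of shNT cells at 5% CO2 without LPS, at 0.728, 0.636 and 0.703.

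Between the sensors, the ratio of NLRP1 to CARD8 ran from 0.0415 to 0.150. It was 1.40 times as high with LPS (exact permutation test, adjusted p = 2.92e-05, 6 of 6 pairs) and 0.738 times as high at 10% CO2 (exact permutation test, adjusted p = 4.80e-05, 6 of 6 pairs). In shNR4A2 cells it was 1.28-fold that of shNT cells (exact permutation test, adjusted p = 0.0151, 4 of 4 states), and in shNR4A3 cells 1.11-fold (exact permutation test, adjusted p = 0.216, 3 of 4 states). Without shNT 5% CO2 + LPS replicate 1, the highest value of all, the last had an unadjusted p of 0.0424 in the exact permutation test. The LPS and CO2 tests of this ratio are not separate from the values of each gene. With LPS the mean log2 difference was -0.43 for CARD8 and 0.07 for NLRP1. At 10% CO2 it was 0.01 for CARD8 and -0.41 for NLRP1.

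The summed level of both proteases was 2.29 to 4.51 times the summed level of both sensors. With LPS this ratio rose 1.28-fold (exact permutation test, p = 6.88e-07, adjusted p = 6.88e-06), in 6 of 6 pairs, and CARD8, the larger part of the sensor sum, fell with LPS. In shNR4A2 cells it was 0.988 times that of shNT cells (exact permutation test, adjusted p = 0.811) and in shNR4A3 cells 1.10 times (exact permutation test, adjusted p = 0.0150, 4 of 4 states). At 10% CO2 it was 0.852 times that at 5%, lower in 6 of 6 pairs, without a test. RNA ratios say nothing of the stoichiometry of the protein complexes.

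**Figure D3:**
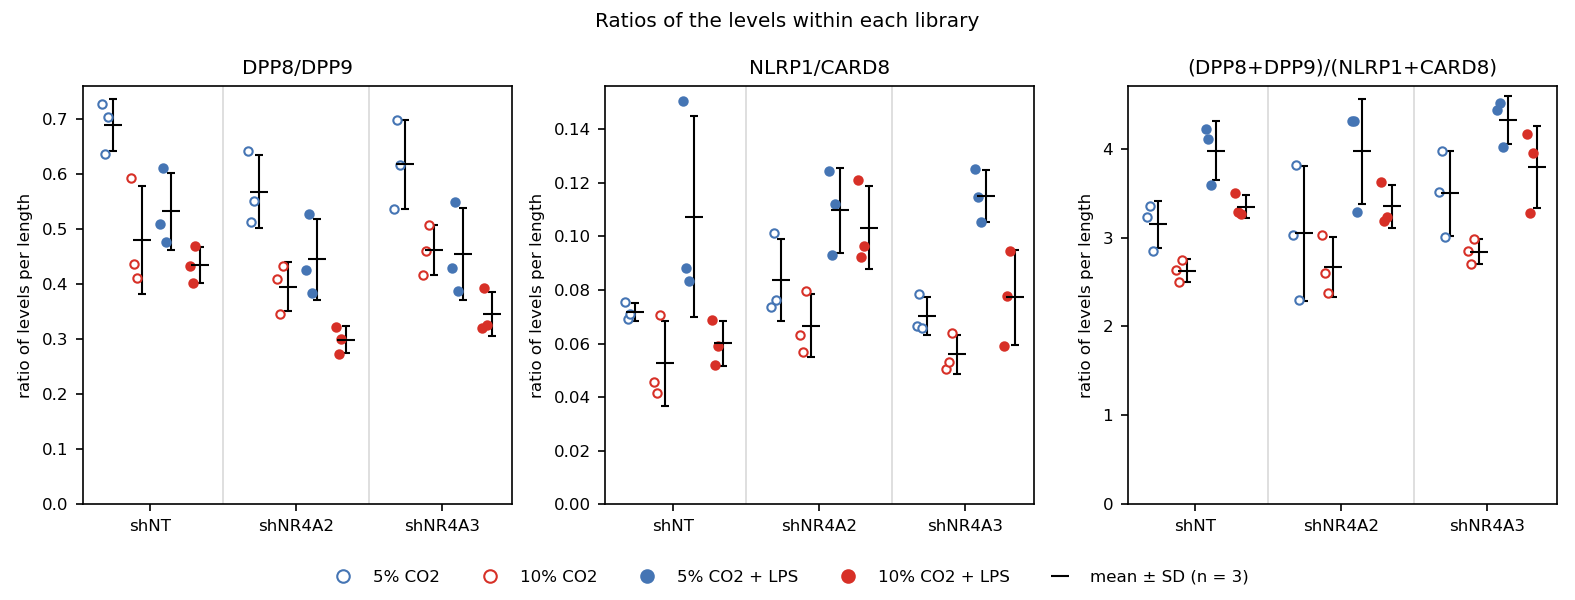
Ratios of levels per length within each library (y axes, from 0) for DPP8 to DPP9, NLRP1 to CARD8 and both proteases to both sensors, by line, with 1 point per library in the colours of CO2 level and LPS and the mean ± SD of 3 libraries. The mean ratio of proteases to sensors is higher with LPS (filled) than without (open) at the same CO2 level in each line, with means of 3.35 to 4.32 against 2.63 to 3.50, although single libraries overlap.

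A list of 36 genes around these 4 was taken by role, of which 34 passed the low-count filter (AIM2 and CARD18 did not). Between the CO2 levels 5 of the 34 were called higher and 4 lower, where 17.0% and 19.4% of all genes were. In neither direction was the list called more often than all genes, and its median was 0.01. The called genes named next are a description. The ubiquitin enzymes of N-degron recognition, which mark proteins by their exposed N-termini for the proteasome, had 2 of 4 members higher (UBR1 0.21, UBR2 0.19). MAP3K20, the ribotoxic stress kinase that phosphorylates NLRP1, was higher (0.17), as was PREP, a prolyl endopeptidase (0.12). NLRP3, the sensor of another inflammasome, was lower (-0.43), with SYK, a kinase known as a DPP9 substrate (-0.37), CARD16, a CARD-only inhibitor of caspase-1 (-0.18), and XPNPEP1, an aminopeptidase that cuts before proline (-0.11). The 10 downstream genes (the adaptor, caspases, gasdermins, interleukins and NINJ1) lay between -0.11 (NINJ1) and 0.41 (CASP5), without a call in edgeR.

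With LPS 14 of the 34 were called higher and 13 lower, where 30.5% and 34.1% of all genes were, and with library size alone 6 were higher. That scaling moved the share of higher calls among all genes from 5412 of 11451 to 2733 of 12533. The downstream genes had 5 members higher and 3 lower. IL1B, the cytokine that caspase-1 matures, rose by 7.99 on the log2 scale, CASP5, a caspase that binds LPS, by 3.09, NINJ1, which ruptures the membrane in lytic death, by 2.33, and GSDME, a gasdermin, by 0.92. CASP5 rested on 0 to 63 counts per library and was at 0 in 2 of them, so its size depends on the prior count of the fit. Of the 6 other sensors tested, 5 were lower, among them NLRC4 (-2.12), NLRP6 (-1.34), NLRP12 (-1.18) and NAIP (-0.88). NLRP6 had only 3 to 25 counts per library. PYCARD, the adaptor that NLRP1 uses and CARD8 does not need, was lower too, at -0.35 (adjusted p = 2.05e-09).

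In shNR4A2 cells 17 of the 34 were called higher and 5 lower than in shNT cells, where 20.2% and 20.7% of all genes were, with a list median of 0.25. DPP4, the cell-surface relative of DPP8, was higher by 1.48, the flagellin sensor NLRC4 by 0.90 and NAIP, its partner, by 0.86. FAP, another surface relative, had the highest value (2.68), but it was counted only 0 to 17 times per library, so its size depends on the prior count of the fit. PRCP, a lysosomal prolylcarboxypeptidase (-0.37), PREP (-0.16), MAPK14, the p38 kinase upstream of NLRP1 (-0.16), and UBR1 (-0.15) were lower. Of the downstream genes 6 of 10 were higher.

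In shNR4A3 cells 17 of 34 were called higher and 3 lower, where 16.0% and 16.9% of all genes were, with a list median of 0.20. NLRC4 was higher by 1.11, DPP4 by 0.99 and NAIP by 0.82, and FAP stood at 1.504 with the same low counts. MAPK14 (-0.15) and UBR1 (-0.14) were among those lower. Both line contrasts share the shNT libraries, so their values are not independent of each other.

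**Figure D4:**
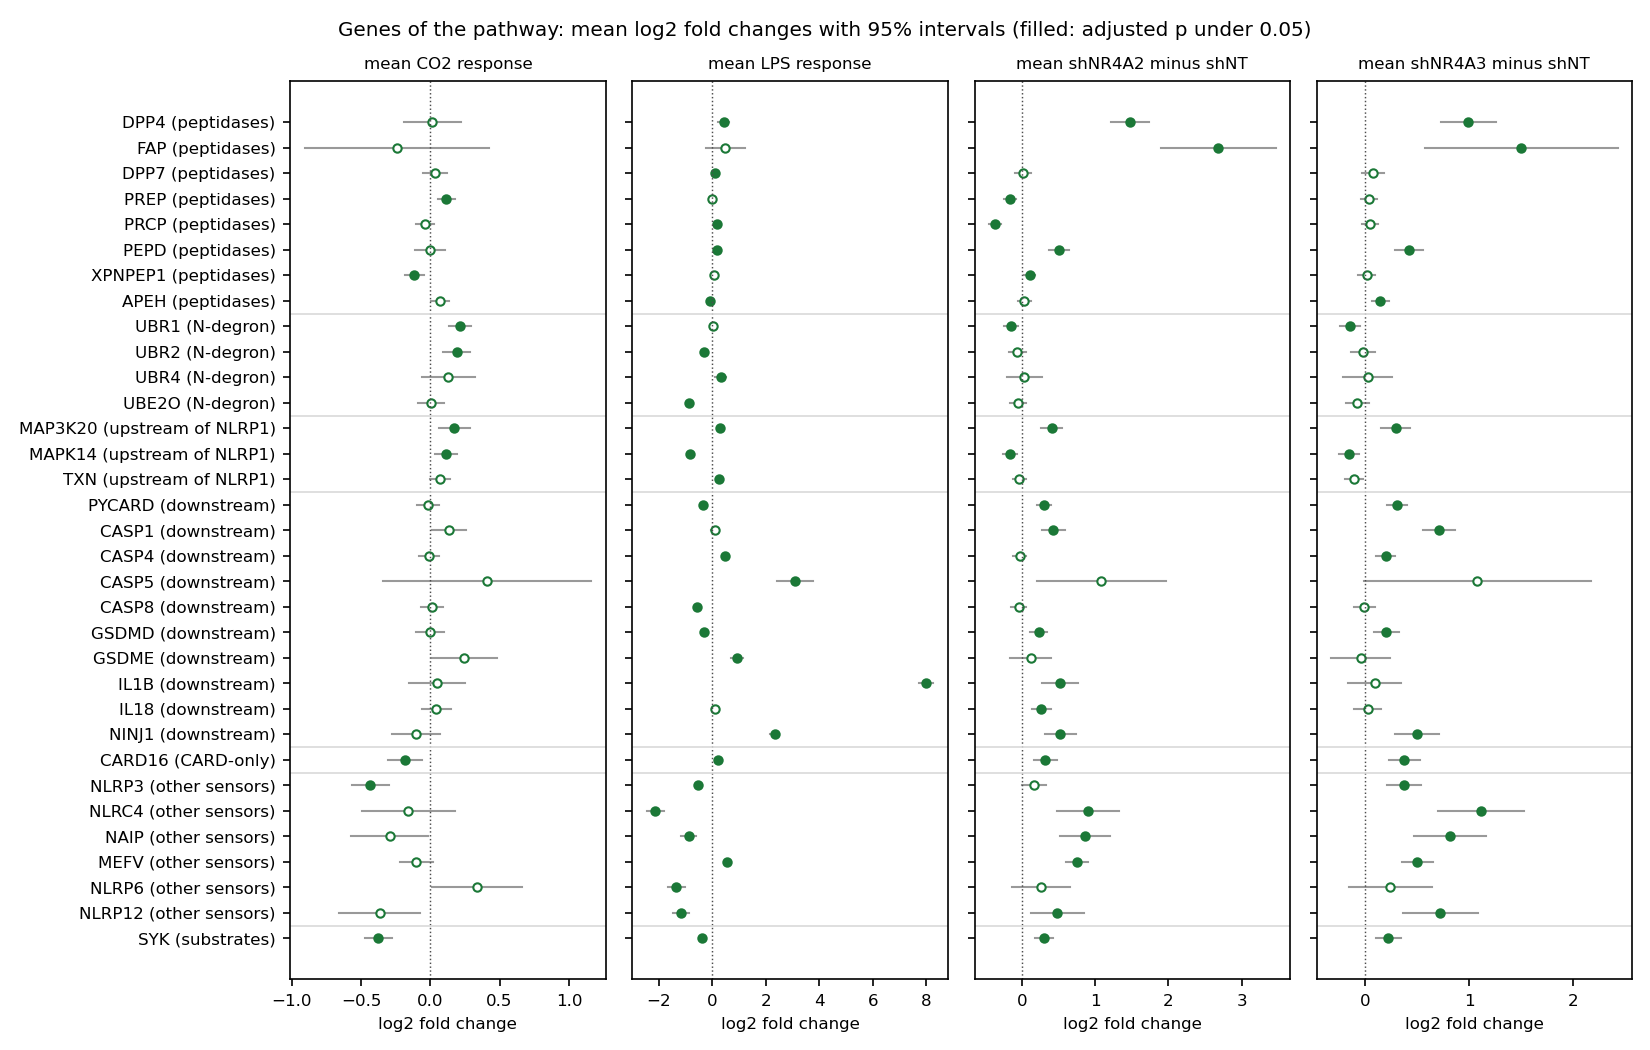
Mean log2 fold changes with 95% intervals (x axes, of different ranges) of tested genes of the list, grouped by role, for CO2 (10% minus 5%), LPS, shNR4A2 minus shNT and shNR4A3 minus shNT, with filled points for an adjusted p under 0.05. CO2 values lie within 0.44 of 0, and LPS values spread from -2.12 (NLRC4) to 7.99 (IL1B). Of the 34 list genes tested, 17 were called higher and 5 lower in shNR4A2 cells, where 20.2% and 20.7% of all genes were. In shNR4A3 cells 17 were called higher and 3 lower, where 16.0% and 16.9% of all genes were. Both line contrasts share the shNT libraries.

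The genes whose level followed each of the 4 most closely were sought over all tested genes, as a description, since libraries of the same condition and scaling enter each point. Over the 36 libraries DPP8 was most like RFX2 (Pearson r of log2 CPM 0.915), RRM2B (0.908), ATG13 (0.903), RGS12 (0.900) and SOS2 (0.900). DPP9 was most like GNAI2 (0.882), UBE2J2 (0.861), APH1A (0.854), DBNL (0.854) and ADRM1 (0.849). For NLRP1 these were WDR45 (0.828), ADGRE2 (0.789), ANXA1 (0.774), EPAS1 (0.761) and CYTIP (0.753). CARD8 was most like RNF34 (0.946), RNF146 (0.945), CARD6 (0.934), SLF2 (0.932) and DYRK2 (0.921). None of the 4 was among the 5 most like another.

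After the mean of the 6 libraries of its line and LPS state was taken from each library, which leaves CO2 and replicate differences, DPP8 was most like THRAP3 (0.943), SYNJ2 (0.942), ZC3H7A (0.939), KDM3A (0.937) and SIN3A (0.932). DPP9 was most like MYO1F (0.871), FAM32A (0.868), CHMP1A (0.867), KCNAB2 (0.866) and LRPAP1 (0.864). NLRP1 was most like CYTIP (0.797), FMNL1 (0.778), ALOX5 (0.776), WDR45 (0.772) and GABARAPL1 (0.772), and CARD8 most like ANGEL2 (0.789), C2CD5 (0.777), MOSPD2 (0.765), FBXL4 (0.750) and GOLPH3L (0.747). Among the 4 genes themselves, these deviations over 36 libraries gave r = 0.599 for DPP8 and NLRP1. For DPP9, r was 0.497 with DPP8 and 0.482 with NLRP1. CARD8 stood at -0.223 with DPP8, -0.429 with DPP9 and -0.0154 with NLRP1. These deviations hold the CO2 contrast on which DPP8 was chosen. The correlations of DPP8 here are partly set by that choice and are not a test.

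On GRCh38, as the count files give them, DPP8 (ENSG00000074603) spans chr15:65442463-65517704 with 23 merged exons, and DPP9 (ENSG00000142002) chr19:4675224-4724673 with 28. NLRP1 (ENSG00000091592) spans chr17:5499427-5619424 with 22 and CARD8 (ENSG00000105483) chr19:48180770-48255946 with 24, all 4 on the minus strand. Whether the counting used strand is not given in the sources used here, and genes on the opposite strand share exon bases with DPP9 and CARD8. DPP9-AS1 shares 1528 bases, 18.4% of the exon bases of DPP9, but had 1 to 23 counts per library. ZSWIM9 shares 313 bases with CARD8 (2.42%) and had 90 to 380 counts. It was lower with LPS by -0.92 (SE 0.09, adjusted p = 4.94e-11), and its part in the CARD8 decrease was not tested. CARD8-AS1, which shares 3 bases, had 172 to 614 counts and was lower with LPS by -0.43 (SE 0.06, adjusted p = 2.99e-07). ENSG00000268583 shares 377 bases with CARD8 and had 0 to 8 counts. No gene in the files shares exon bases with DPP8 or NLRP1.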

How the data were processed

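RNA was selected for polyadenylated transcripts and sequenced in 36 libraries. Per the labels and file headers, the authors used Trimmomatic 0.36 for trimming, STAR 2.5.2b with GRCh38 for alignment and featureCounts (Subread 1.5.2) for counting, and deposited raw counts per gene. The annotation release and strand setting are not given in the sources used here. The 4 genes and the list around them were chosen with earlier results of these data known.

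Symbols were matched by gene ID (56410 of 57500). Genes passing filterByExpr (minimum count 10, minimum total 15) over the 12 conditions were scaled by TMM and tested by quasi-likelihood in edgeR 4.0.16 (R 4.3.3), with Benjamini-Hochberg adjustment over 17720 genes. The SE was the log2 fold change divided by the square root of F, and 95% intervals used the normal quantile. Each pair of conditions was fitted on its own 6 libraries, each difference of responses on 12, and mean responses in 1 fit of 36 libraries. The study's methods name DESeq2, used here (1.42.0) as an alternative. The others were RLE factors, library size, no filter, 1 fit to 36 libraries, thinning, the replicate block and each library left out. The biological coefficient of variation was 11.7%. RPKM and TPM used the exon lengths in the files. Ratios were tested by exact permutation, with labels exchanged within line and CO2 level for LPS and within line and LPS state for CO2. For lines they were exchanged within CO2 level and LPS state. The replicate number did not enter these tests. Correlations used log2 CPM (prior count 2). Named were the 4 genes, NR4A2 and NR4A3, up to 4 called list genes per direction and mean response, overlapping features and the 5 most correlated genes per measure. PYCARD, LYZ, CSF1R, CD14, FCGR1A, CD33, NCAM1 and KLRD1 were named with values known. Some items of the list and of the markers are not reported here. The scripts were tested on simulated data. Same-numbered libraries were checked for pairing: in 14 of 20 comparisons every correlation of their deviations passed 0.1.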

Additional observations from a re-analysis of the deposited data

How the results depend on the processing

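Of 966 values recomputed under another setting, 935 kept their direction and their side of the threshold. The mean LPS response of DPP9 was called at 0.10 with RLE factors and with DESeq2, at 0.0811 with thinning and at 0.0797 with the replicate block (adjusted p = 0.0176), and reversed to -0.13 with library size only. The mean CO2 response of DPP9 was -0.10 without a filter and no longer called. The mean difference of CARD8 in shNR4A2 cells was called at 0.11 with RLE factors and with DESeq2. DPP8 was called in 1 LPS comparison in 1 fit to 36 libraries, in 6 with library size only and in 4 with the replicate block. With that block 1 line comparison of DPP8 and 2 of DPP9 were called, and no other call of DPP9, NLRP1 or CARD8 changed. Between the CO2 levels, the contrast it was chosen on, DPP8 passed the threshold in 4 of 6 comparisons. It did so in 6 with the block and with DESeq2, and in 3 with library size only. With library size only, DPP9 was called in 1 CO2 comparison and 6 list genes were called higher with LPS. The cause was not tested. Of 2484 values with 1 library left out, 2444 stayed on their side. The mean LPS response of DPP9 then ranged from 0.064 to 0.0926, called in 10 of 36 fits, and the mean shNR4A2 difference of CARD8 from 0.0775 to 0.133, called in 3 of 36. Calls ranged from 1 to 3 of DPP8 with LPS, 0 to 1 of DPP8 and 0 to 2 of DPP9 between lines, 0 to 1 of NLRP1 between CO2 levels and 5 to 6 of CARD8 with LPS. The log2 ratio differences of shNR4A3 cells ranged from -0.23 to -0.15 for DPP8 to DPP9 and from 0.11 to 0.21 for NLRP1 to CARD8. By Spearman correlation, 2 to 5 of the 5 most like genes were shared. NLRP1 rested on 49 to 176 counts per library, and with all libraries thinned to the smallest its mean responses stayed on their side of the threshold. The RNA data do not show protein levels.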
